A study of Rattus norvegicus with 21 samples.

Results

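At 6 h of exposure to the cytokines interleukin-1β (IL-1β) and interferon-γ (IFNγ), a rat insulinoma INS-1 clone that carries a cathepsin H plasmid (pCTSH1) was compared with INS-1 cells that carry the empty vector (pcDNA). The members are the 3 arrays titled for pCTSH1 and the 3 titled for pcDNA at 6 h, which are 6 of the 21 arrays of the series. All 31042 probe sets other than array controls entered the comparison. Both lines were stably transfected, were cultured for 3 days, and then received 150 pg/ml of recombinant mouse IL-1β with 5 ng/ml of recombinant rat IFNγ. Arrays of the same lines without cytokines (0 h) and after 16 h, and of INS-1 cells without a plasmid at 0 h, serve to place the 6 h values. These groups have 3 arrays each. They also enter the same fit, whose shared estimate of spread is used in every p-value at 6 h and between times. No untreated culture was taken at 6 h, so every 6 h level is one under cytokines. The pCTSH1 line is 1 clone, and the effect of the plasmid cannot be told apart from any other difference between this clone and the vector line. The labels number the replicates without saying that they came from separate cultures, so the p-values below measure only the spread between these arrays. The title of the series names protection from cytokine-induced apoptosis by cathepsin H and the small GTPase Rac2, and the comparison at 6 h asks how the 2 lines differed early in that exposure.

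INS-1 cells are a beta-cell line that makes and secretes insulin. Cathepsin H is a lysosomal cysteine protease with aminopeptidase activity, and its gene lies in a region linked to the risk of type 1 diabetes. In beta cells IL-1β acts mainly through NF-κB, and together with IFNγ it induces chemokines, antigen presentation and the inducible nitric oxide synthase, and over time endoplasmic reticulum stress and death. The endoplasmic reticulum stress response has 3 sensors, PERK (Eif2ak3), IRE1 and ATF6. PERK phosphorylates the initiation factor eIF2α, which lowers protein synthesis but favours translation of the transcription factor ATF4, and ATF4 induces Ddit3 (CHOP), Trib3 and Chac1.

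Values are normalised log2 intensities, so a difference of 1 is a doubling of signal, and levels of different probe sets are not set against each other. At 6 h the 6 array medians lay between 5.02 and 5.05, and the share of probe sets above background, defined on each array as its brightest nonspecific control probe set, was 64.9% to 66.9%. The differences between replicate arrays of 1 line had a standard deviation of 0.194 to 0.216 over all probe sets. None of the 6 beta-cell markers measured was at background in both lines, while 5 of 6 fibroblast, 6 of 8 leukocyte, 5 of 6 exocrine, 3 of 4 alpha-cell, 4 of 5 delta- and PP-cell, 2 of 4 endothelial and 1 of 6 neuronal markers were. The summed neuronal marker level was 11.63 to 11.81 in the vector line and 11.59 to 11.62 in the clone. The summed alpha-cell marker level was 8.04 to 8.40 in the vector line and 8.55 to 8.74 in the clone, and its part in the results was not tested. Irx1, Irx2 and Ttr were at background in both lines, so this sum rests mainly on Gcg alone. The Gcg difference of 0.53 did not pass the test (adjusted p = 0.132 by limma). The summed beta-cell marker level was 15.14 to 15.21 in the vector line and 15.28 to 15.31 in the clone. The probe set for rat Ctsh read 3.48, 3.76 and 3.78 in the vector line, all at background, and 4.12, 3.87 and 4.21 in the clone. That difference of 0.40 did not pass the test (adjusted p = 0.458 by limma). The sources used here do not state the species of the plasmid's coding sequence, so this probe set does not check the labels.

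At 6 h, 544 probe sets (1.75% of those tested) were higher in the clone and 343 (1.1%) were lower, 887 in all (2.86%), at a Benjamini-Hochberg adjusted p below 0.05 in limma. With each gene taken by its brightest probe set, 327 of 13440 genes were higher (2.43%) and 209 were lower (1.56%), together 3.99%. The median size was 0.50 among the higher genes and 0.60 among the lower genes on the log2 scale, and 24 higher and 36 lower genes differed by more than 1. Arrays of the lines did not overlap for 26.1% of all genes, so the absence of overlap alone marks many genes here. In bulk samples such as these, fewer cells with a transcript and less of it per cell cannot be told apart.

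**Figure D1:**
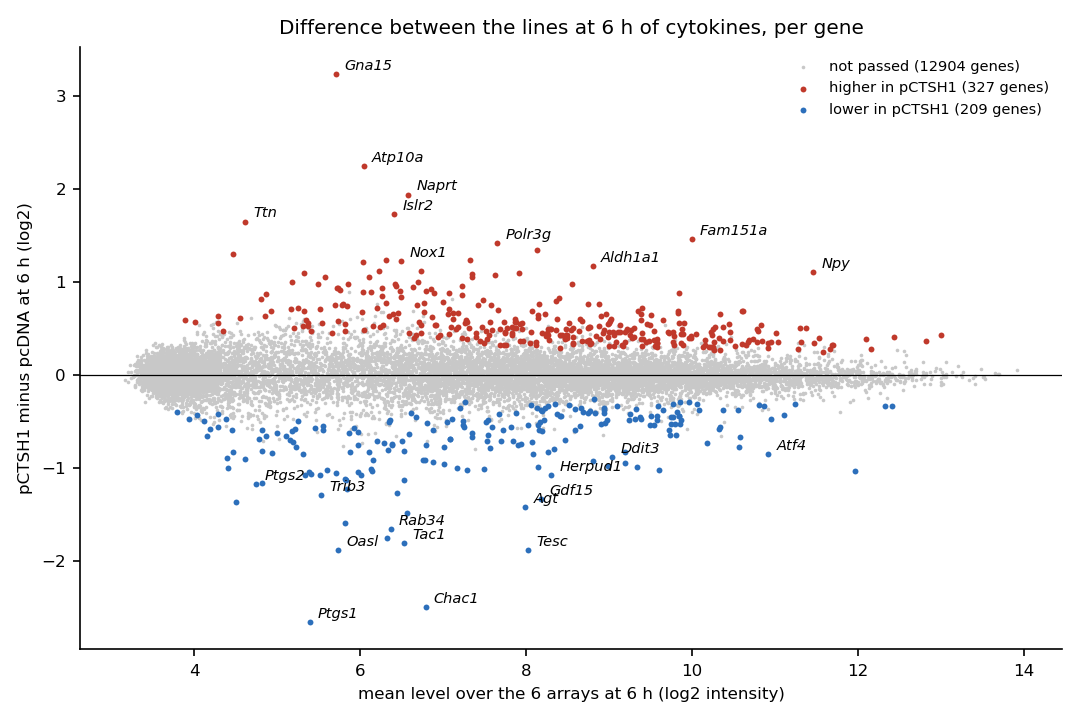
Difference between the clone and the vector line at 6 h (log2, pCTSH1 minus pcDNA, y axis) against the mean log2 level of the 6 arrays (x axis), with 1 point per gene; 327 genes called higher are red, 209 called lower are blue and the rest grey. Gna15 stands at 3.23 at the top and Ptgs1 (-2.65) and Chac1 (-2.50) at the bottom, while most calls lie within 1 of zero.

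Of the 22 gene lists examined, that of the endoplasmic reticulum stress response had the most lower calls. Of 31 measured genes of the list, 12 were lower in the clone at 6 h and 0 were higher, beside 1.56% of all genes lower and 2.43% higher. The median of the list was -0.21, against -0.00 over all genes, and 28 of the 31 members had a difference below zero. At 0 h the list had 0 lower members and 1 higher (Atf5, a transcription factor of the same stress pathway), with a median of -0.14, and at 16 h it had 2 lower members (Eif2ak3 and Dnajc3) and a median of -0.14. The list was chosen with results of these data known, so its count describes these arrays and is no independent evidence.

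Chac1, which degrades glutathione and is a target of ATF4 and CHOP, differed most. It read 7.95, 7.93 and 8.23 in the vector line and 5.48, 5.40 and 5.72 in the clone, a difference of -2.50 ± 0.13 (standard error of the fit), or 5.64-fold, with an adjusted p of 7.97e-10 by limma. The lines were far from overlapping. At 0 h the lines read nearly alike, with means of 5.37 in the vector line and 5.45 in the clone, and at 16 h they again did, with means of 10.75 and 10.74. The vector line at 6 h thus stood 2.66 above its own untreated level and the clone 0.09 above its own. The line difference itself changed from 0 h to 6 h by -2.57 (adjusted p = 4.55e-07 by limma, a test that called 32 probe sets or 0.103% of those tested) and from 6 h to 16 h by 2.49 (adjusted p = 7.83e-07, where 83 or 0.267% were called).

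The transcription factors upstream of Chac1 were lower as well. Atf4, the central factor of the PERK arm, read 11.33, 11.43 and 11.28 in the vector line and 10.47, 10.50 and 10.50 in the clone, a difference of -0.86 ± 0.09 (adjusted p = 8.91e-06 by limma). Ddit3, which encodes the pro-apoptotic factor CHOP, read 9.62, 9.47 and 9.33 against 8.73, 8.63 and 8.40, a difference of -0.88 ± 0.10 (adjusted p = 1.1e-05). Arrays of the lines did not overlap for either gene. Ddit3 differed between the lines by 0.03 at 0 h and -0.18 at 16 h, neither past the test, and its line difference changed both from 0 h to 6 h (-0.91, adjusted p = 0.00501) and from 6 h to 16 h (0.70, adjusted p = 0.0278). The latter call was lost without any 1 of 7 arrays (0.0557 to 0.0747): pcDNA replicates 1 and 2 and pCTSH1 replicates 2 and 3 at 6 h, and pcDNA replicate 1 and pCTSH1 replicates 1 and 2 at 16 h. For Atf4 the change from 6 h to 16 h passed the test (0.75, adjusted p = 0.012) and that from 0 h to 6 h did not (-0.61, adjusted p = 0.0966). Eif2ak3, the sensor kinase PERK itself, read 9.28, 9.24 and 9.28 in the vector line and 8.32, 8.31 and 8.39 in the clone, a difference of -0.92 ± 0.15 (adjusted p = 7.91e-04). Eif2ak3 was lower at 16 h as well, by -0.65 (adjusted p = 0.0137).

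Some further targets of these factors, and other stress genes, followed the same order of the lines. Trib3, a pseudokinase that CHOP and ATF4 induce, read 5.90, 5.88 and 6.74 in the vector line and 5.10, 4.86 and 4.66 in the clone, a difference of -1.30 ± 0.19 (adjusted p = 4.91e-04 by limma), and all 3 of its probe sets were lower. Herpud1, which serves the removal of misfolded proteins from the endoplasmic reticulum, read 8.92, 9.0 and 8.61 against 8.01, 7.94 and 7.35, a difference of -1.07 ± 0.14 (adjusted p = 8.94e-05). The lines did not overlap for either gene. At 0 h and 16 h neither had a call, with differences of -0.11 and -0.10 for Trib3 and -0.15 and -0.19 for Herpud1. Dnajb9, a co-chaperone that IRE1 signalling induces, was lower by -0.83 ± 0.13 (adjusted p = 9.57e-04). Gdf15, a stress-induced secreted factor outside the list, read 9.09, 8.90 and 8.55 against 7.38, 7.54 and 7.61, a difference of -1.34 ± 0.21 (adjusted p = 6.48e-04). Eif2ak3, Dnajb9 and the other members past the 5 smallest p-values of the list are named after their values were seen.

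The remaining 5 calls of the list were smaller or rested on single arrays. Nupr1, a stress-induced nuclear protein, differed by -0.73 (adjusted p = 0.007 by limma), and by an adjusted p of 0.0504 without pcDNA replicate 1. Atf6, the sensor of the third arm, differed by -0.45 (adjusted p = 0.00788), and missed the threshold without pcDNA replicate 3 (0.0522) or pCTSH1 replicate 2 (0.0655). Dnajc3 (-0.38, adjusted p = 0.0244), Creld2 (-0.53, adjusted p = 0.0446) and Selenos (-0.33, adjusted p = 0.0481), which act in folding and disposal of proteins of the endoplasmic reticulum, each missed the threshold without any 1 of the 6 arrays. Their adjusted p without 1 array ranged from 0.0536 to 0.109 for Dnajc3, from 0.0556 to 0.205 for Creld2 and from 0.0753 to 0.212 for Selenos. With any 1 of the 6 arrays left out, the list had 8 or 9 lower members.

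The classical chaperones and several other members of the list did not pass the test. Hspa5, which encodes the main chaperone BiP, read 12.70, 12.70 and 12.48 in the vector line and 12.52, 12.53 and 12.33 in the clone, a difference of -0.17 with overlapping arrays (adjusted p = 0.709 by limma). Xbp1, the transcription factor of the IRE1 arm, differed by -0.06, Hsp90b1 by -0.07, Hyou1 by -0.36 and Pdia4 by -0.21. Asns, the asparagine synthetase that ATF4 induces, differed by 0.10 (adjusted p = 0.751). Sesn2, Ppp1r15a and Atf5, also of the list, differed by -0.18, -0.21 and 0.25 without a call. The list's targets of ATF4 were thus not all lower. These members, too, are named after their values were seen.

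**Figure D2:**
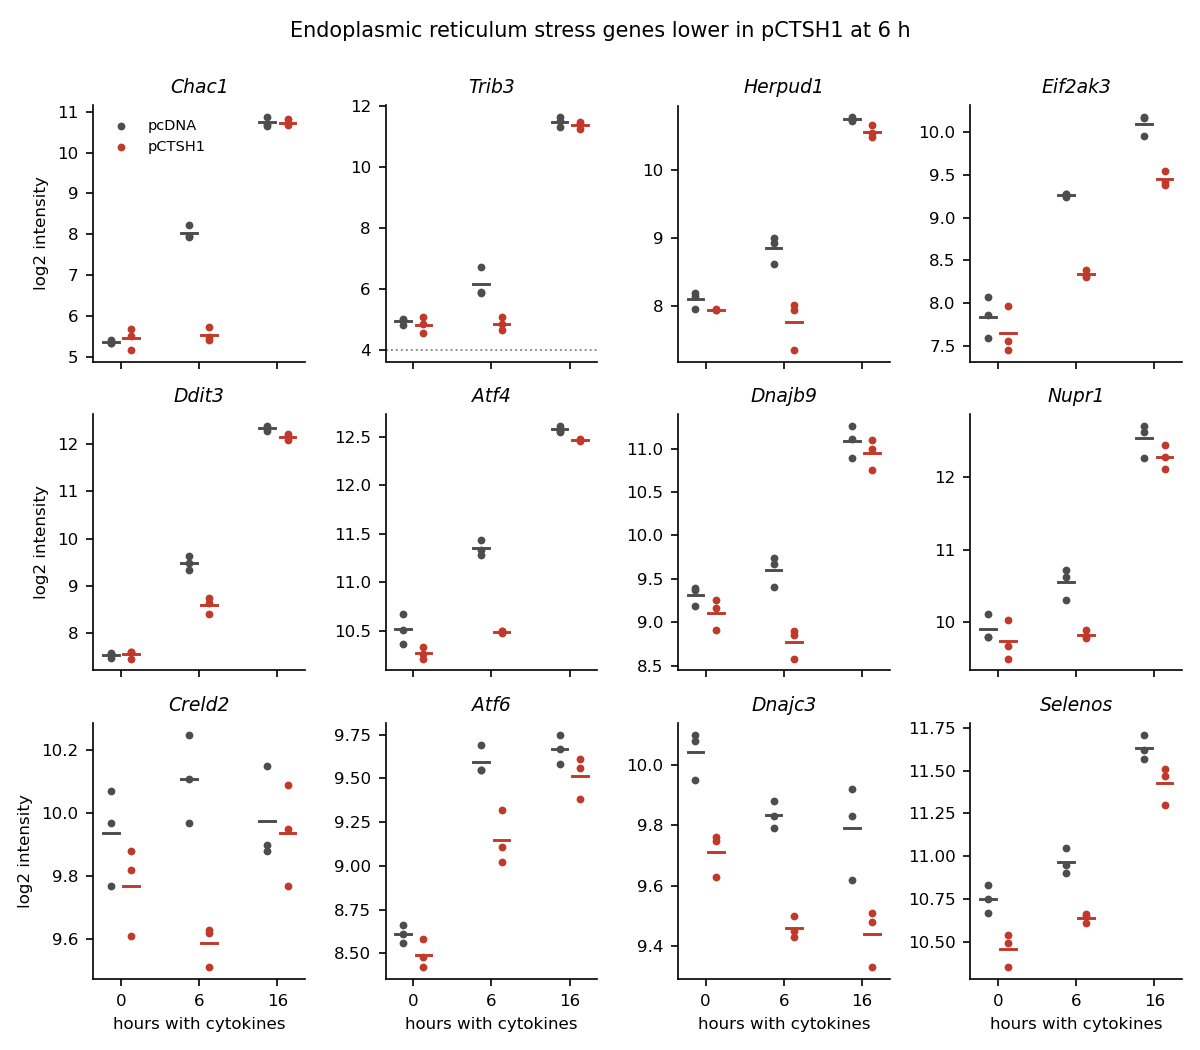
Log2 intensity (y axis) of the 12 endoplasmic reticulum stress genes called lower in the clone, on each array at 0, 6 and 16 h of cytokines (x axis); grey dots are pcDNA arrays, red dots pCTSH1 arrays, and bars are means of 3 arrays. At 6 h the red dots lie under the grey dots in every panel, and for Chac1 the groups meet at 0 h and at 16 h.

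Promoter sequence gives a further view of these genes that the arrays did not use. The 250 bases before each gene start, from RefSeq (GRCr8), were searched on both strands for TGATGNAA, the composite element that ATF4 binds with a partner, and for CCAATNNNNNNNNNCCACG, the endoplasmic reticulum stress element that ATF6 binds with NF-Y. The first motif was in 3.4% of 33469 promoters and the second in 0.0657%. Of the 11 lower members with a promoter in the table, 4 held TGATGNAA (Chac1, Trib3, Herpud1 and Nupr1) and 2 held the stress element (Dnajc3 and Creld2). Of the 16 members with a promoter that did not pass the test, 1 held TGATGNAA (Ppp1r15b) and 4 held the stress element (Xbp1, Hspa5, Hsp90b1 and Ero1b). Atf6, Pdia6, Manf and Ero1a had no entry in the table. A match is a description of letters, not evidence of binding.

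The 4 lower genes with TGATGNAA and Ppp1r15b are shown to let the element be read in place, 5′ to 3′ on the strand of the gene, with the match in capitals (TTNCATCA where it lies on the opposite strand) and up to 25 bases on either side. They lie at chr3:126795939-126795996 (plus strand, Chac1), chr3:161275534-161275579 (minus strand, Trib3), chr19:10614859-10614916 (minus strand, Herpud1), chr1:190645924-190645981 (minus strand, Nupr1) and chr13:47129797-47129854 (plus strand, Ppp1r15b) in GRCr8. The match ended 159, 13, 176, 47 and 170 bases before the gene start, in that order.
Chac1: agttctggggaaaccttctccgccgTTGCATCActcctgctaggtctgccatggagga
Trib3: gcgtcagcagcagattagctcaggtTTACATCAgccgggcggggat
Herpud1: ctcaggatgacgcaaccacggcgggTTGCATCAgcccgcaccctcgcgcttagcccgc
Nupr1: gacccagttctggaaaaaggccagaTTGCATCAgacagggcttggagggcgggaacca
Ppp1r15b: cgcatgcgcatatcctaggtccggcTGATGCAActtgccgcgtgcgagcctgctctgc

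The stress element is shown for the lower genes Dnajc3 and Creld2 and for Hspa5 and Xbp1, which did not pass the test, since it stood in genes of both kinds. Capitals mark the whole match, read on the gene's strand or, for Creld2, on the opposite strand. The windows are chr15:102432509-102432577 (Dnajc3), chr7:121789214-121789282 (Creld2), chr3:38452948-38453015 (Hspa5) and chr14:84604533-84604601 (Xbp1), all on the plus strand of GRCr8.
Dnajc3: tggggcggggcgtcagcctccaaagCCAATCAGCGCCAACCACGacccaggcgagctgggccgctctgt
Creld2: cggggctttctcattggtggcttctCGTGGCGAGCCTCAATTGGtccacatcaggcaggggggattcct
Hspa5: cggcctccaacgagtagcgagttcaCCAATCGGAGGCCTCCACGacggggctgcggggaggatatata
Xbp1: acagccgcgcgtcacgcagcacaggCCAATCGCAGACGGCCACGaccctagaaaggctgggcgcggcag

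The cyclooxygenases, which make the precursor of prostaglandins, were both lower in the clone. Ptgs1 (COX-1) read 6.69, 6.58 and 6.88 in the vector line and 4.0, 4.27 and 3.93 in the clone, where 2 of 3 arrays were at background, so the clone was at least 6.29-fold lower (adjusted p = 1.04e-09 by limma). At 0 h the difference was -0.60 (adjusted p = 0.0267) and at 16 h -3.30, and the change from 0 h to 6 h, -2.05, passed the test (adjusted p = 5.27e-05). Another, dimmer probe set of Ptgs1 differed by -0.51 and did not pass (adjusted p = 0.106). Ptgs2 (COX-2), the inducible enzyme, read 5.29, 5.40 and 5.30 against 3.89, 4.19 and 4.40, a difference of -1.17 ± 0.17 (adjusted p = 3.63e-04). In the vector line Ptgs2 was above background only under cytokines: its 0 h arrays read 3.57, 3.69 and 3.55. The change of its line difference from 0 h to 6 h (-1.35, adjusted p = 0.0228) was lost without any 1 array at 6 h other than pCTSH1 replicate 3 (0.0641 to 0.0864), and without any 1 at 0 h other than pCTSH1 replicate 2 (0.0561 to 0.0836).

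Most of the cytokine response did not pass the test between the lines at 6 h. Of 34 interferon target genes 1 was lower (Oasl) and 0 were higher, and of 27 NF-κB genes 1 was lower (Ptgs2). Of 16 chemokines 1 was lower (Ccl20) and of 26 cytokine receptors and signalling genes 1 was lower (Irak3), with 0 higher in each list. Over all genes 1.56% were lower and 2.43% higher, so few calls alone do not set these lists apart. At an unadjusted limma p below 0.05 these lists had 9, 4, 1 and 3 lower members and 0, 0, 0 and 1 higher. Of all 13440 genes, 892 were lower and 1070 higher at that threshold. Their medians were -0.13, -0.18, -0.04 and -0.11, and 27 of 34 interferon targets and 22 of 27 NF-κB genes had a difference below zero, against 6819 of 13440 genes. Averaging the probe sets of each gene gave 3 lower NF-κB genes in place of 1. None of 13 genes of MHC class I presentation and none of 7 of class II was called in limma, nor at an unadjusted p below 0.05.

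Isg15, Cxcl2 and Nos2 are examples of cytokine-induced genes without a call. Isg15, an antiviral ubiquitin-like protein, read 12.05, 12.11 and 12.07 in the vector line and 11.81, 11.77 and 11.83 in the clone, a difference of -0.28 that did not pass (adjusted p = 0.195 by limma), while its means at 0 h were 4.63 and 4.71. Cxcl2, a chemokine for neutrophils, differed by -0.19 (adjusted p = 0.675) with means at 6 h of 12.36 and 12.16. Nos2, the inducible nitric oxide synthase, read 7.01, 6.84 and 7.19 against 6.71, 6.46 and 6.78, a difference of -0.37 (adjusted p = 0.425). For Isg15, Cxcl2 and Nos2 the clone's arrays all lay below those of the vector line, as they did for many genes without a call.

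Among response genes that did differ, Oasl, an oligoadenylate synthetase-like protein of antiviral defence, read 6.52, 6.37 and 7.12 in the vector line and 4.66, 4.31 and 5.38 in the clone. The difference was -1.88 ± 0.21 (adjusted p = 1.82e-05 by limma) and the arrays did not overlap. At 0 h all arrays of Oasl in both lines read 3.83 or less. Blnk, an adaptor known from B-cell receptor signalling, read 6.96, 6.94 and 7.68 against 5.10, 5.47 and 5.75, a difference of -1.75 ± 0.25 (adjusted p = 3.09e-04), with 0 h means of 4.33 and 4.18. Casp4, an inflammatory caspase, read 7.72, 7.82 and 7.86 against 6.69, 6.54 and 7.12, a difference of -1.02 ± 0.16 (adjusted p = 6.79e-04). Casp4 means at 16 h were 9.16 and 9.02, close to each other, while Blnk still differed there by -1.42.

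Ccl20, a chemokine for lymphocytes and dendritic cells, read 8.74, 8.92 and 8.78 in the vector line and 8.02, 8.19 and 8.14 in the clone, a difference of -0.70 ± 0.10 (adjusted p = 2.72e-04 by limma). By 16 h its order was the other way round, without a call (0.30), and the change of the line difference between these times was 1.00 (adjusted p = 0.00207). C9, a late complement component, was lower by -1.59 ± 0.17 (adjusted p = 1.11e-05), and Slc7a7, an amino acid transporter, was at least 2.2-fold lower, with all 3 arrays of the clone at background. Tnfaip8, a regulator of apoptosis, was lower by -1.23 (adjusted p = 0.007), but missed the threshold without pcDNA replicate 3 (-1.04, adjusted p = 0.0533). Irak3, a brake on IL-1 receptor signalling, was lower by -1.07 (adjusted p = 0.0186) and missed it without any 1 array other than pCTSH1 replicate 3 (0.0559 to 0.133).

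Early response factors, death genes and survival genes gave up to 3 calls a list, against 2.43% of all genes higher and 1.56% lower. Of 30 AP-1 and immediate early genes 1 was higher and 2 were lower, of 24 death genes 2 were lower and 0 higher, and of 17 survival genes none was called in limma. At an unadjusted limma p below 0.05 these lists had 7, 6 and 5 lower members and 4, 0 and 1 higher. Of all 13440 genes, 892 were lower and 1070 higher at that threshold. With the probe sets of each gene averaged, they had 3, 4 and 2 lower calls and 0 higher. Myc, a growth-promoting transcription factor, read 8.80, 8.67 and 8.71 in the vector line and 8.0, 7.81 and 7.99 in the clone, a difference of -0.79 ± 0.09 (adjusted p = 2.16e-05). Myc had no call at 0 h (-0.04) or 16 h (-0.08), and both changes of its line difference passed the test (-0.75, adjusted p = 0.0174, and 0.71, adjusted p = 0.0178). The first was lost without any 1 of 7 arrays (0.0543 to 0.0691): replicates 2 or 3 of pcDNA and 1 or 2 of pCTSH1 at 0 h, and 1 or 3 of pcDNA and 2 of pCTSH1 at 6 h. The latter was lost without pCTSH1 replicate 2 at 6 h (0.0658) or pcDNA replicate 1 at 16 h (0.0523). Fas, a death receptor, differed by -0.48 (adjusted p = 0.0309), and Dusp1, a phosphatase of MAP kinases, by -0.38 (adjusted p = 0.0251). The call of Fas was lost without any 1 array other than pCTSH1 replicate 3 (0.0929 to 0.147), and that of Dusp1 without replicates 1 or 2 of either line (0.0862 to 0.142). Klf2, the higher gene (0.56, adjusted p = 0.0326), lost its call without any 1 array other than pCTSH1 replicate 3 (0.061 to 0.171), and 4 other probe sets of Klf2 did not pass. Atf3, which stress and cytokines both induce, differed by -0.46 and did not pass (adjusted p = 0.0542).

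Nox1 and Rac2, the latter named in the title of the series, belong to 1 enzyme system, in which Rac GTPases activate NADPH oxidases that make superoxide. Nox1, the catalytic subunit, read 5.89, 5.78 and 5.98 in the vector line and 6.76, 7.02 and 7.52 in the clone, a difference of 1.22 ± 0.18, or 2.33-fold (adjusted p = 4e-04 by limma). The clone's arrays were all above those of the vector line. The difference was 0.09 at 0 h and 2.42 at 16 h, but the changes between times did not pass the test (0 h to 6 h 1.13, adjusted p = 0.134; 6 h to 16 h 1.20, adjusted p = 0.0515). Rac2 read 4.73, 5.11 and 5.62 against 5.56, 5.31 and 6.16, with overlapping arrays and a difference of 0.52 ± 0.19 (adjusted p = 0.199). Without pcDNA replicate 3 the Rac2 difference passed the threshold (adjusted p = 0.0343), and at 16 h it was 1.36 (adjusted p = 2.31e-04). Of 27 Rac, NADPH oxidase and actin genes Nox1 was the only call at 6 h, and the list's median was 0.07. Among all genes 2.43% were called higher and 1.56% lower. None of 33 antioxidant and nitric oxide genes was called in limma. At an unadjusted limma p below 0.05, 1 was higher and 2 lower, beside 1070 higher and 892 lower of all 13440 genes. Nqo1, a quinone reductase, came nearest, at 0.77 (adjusted p = 0.0653).

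**Figure D3:**
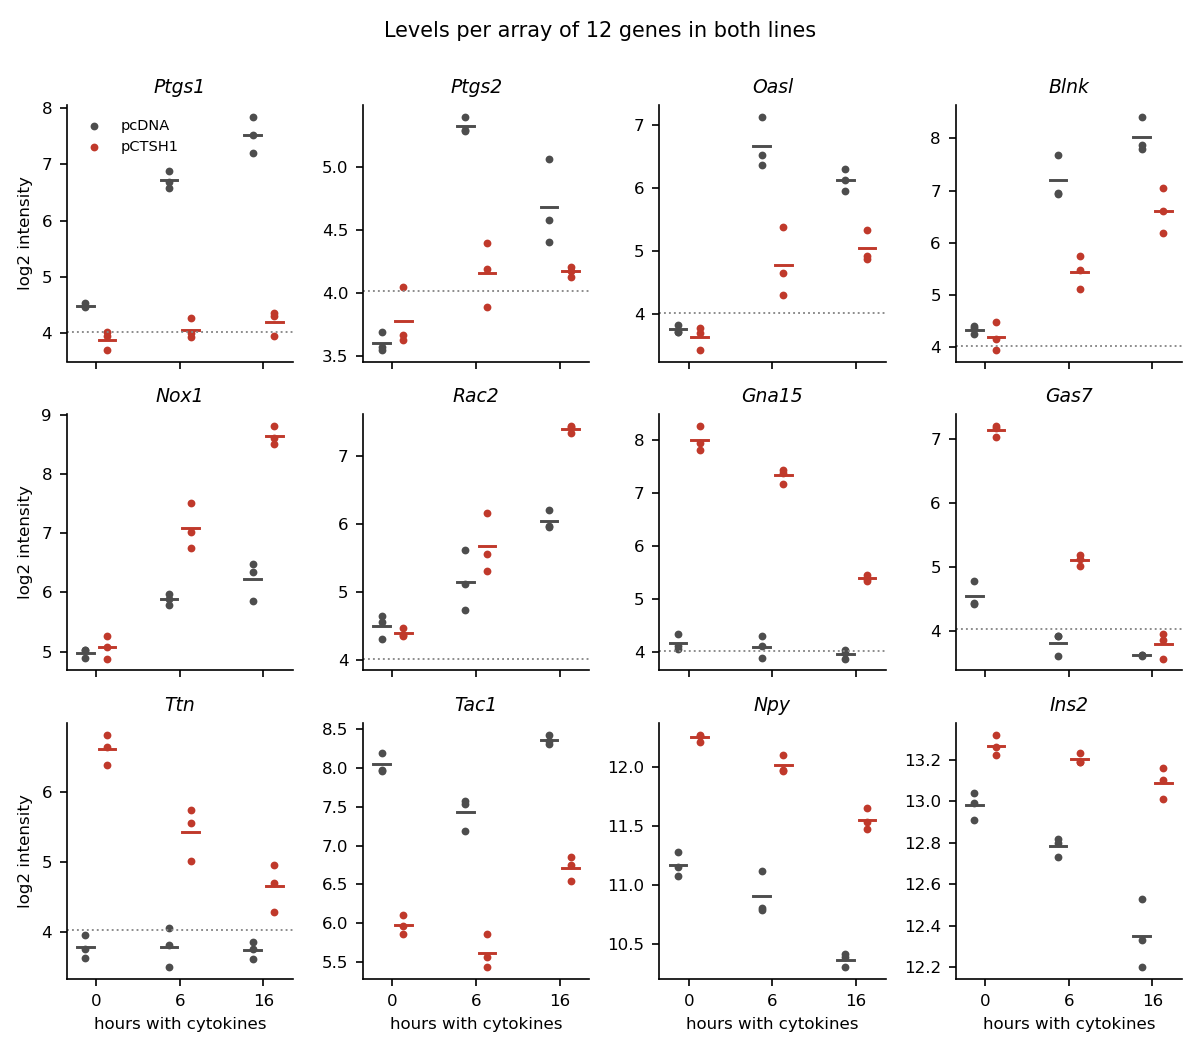
Log2 intensity (y axis) of 12 genes on each array at 0, 6 and 16 h of cytokines (x axis); grey dots are pcDNA arrays, red dots pCTSH1 arrays, bars are means of 3 arrays, a dotted line marks background where a panel reaches it, and each panel has its own scale. Gna15, Tac1 and Npy differ at every time, while Ptgs2, Oasl, Blnk and Nox1 have calls at 6 h and none at 0 h.

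Most of the largest higher differences at 6 h were already there without cytokines. Gna15, a G protein alpha subunit usually found in blood cells, read 4.11, 4.29 and 3.88 in the vector line and 7.43, 7.38 and 7.17 in the clone, a difference of 3.23 ± 0.12, or 9.39-fold (adjusted p = 3.32e-12 by limma). In the vector line 1 array was at background and the mean, 4.09, was close to it, so the size of this fold is uncertain. The Gna15 difference was 3.83 at 0 h and 1.43 at 16 h, and the change from 6 h to 16 h, -1.80, passed the test (adjusted p = 2.42e-05). Atp10a, a phospholipid flippase, was higher by 2.24 ± 0.13, Naprt, an enzyme of NAD synthesis, by 1.94 ± 0.17, and Islr2, a neuronal membrane protein, by 1.72 ± 0.16. Fam151a was higher by 1.46, Polr3g, a subunit of RNA polymerase III, by 1.41, and Glod5 by 1.34. For each of these 7 genes arrays of the lines did not overlap at 6 h, and the difference passed the test at 0 h and at 16 h too. Aldh1a1, which makes retinoic acid, read 8.14, 8.20 and 8.31 in the vector line and 9.38, 9.42 and 9.36 in the clone (1.17 ± 0.10, adjusted p = 3.97e-07).

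Lower genes of the same lasting kind included Tesc, a calcium-binding regulator of sodium-proton exchange, at -1.88 ± 0.12, Rab34, a GTPase of vesicle traffic, at -1.65 ± 0.12, St6gal1, a sialyltransferase, at -1.49 ± 0.10, and Myo16, an unconventional myosin, at -1.27 ± 0.14. Each was lower at 0 h and at 16 h as well. Another probe set of Rab34, above background in both lines, differed by only -0.11 (adjusted p = 0.842 by limma). The large difference of Gas7 dwindled with time. Gas7, a cytoskeletal protein, read 3.91, 3.60 and 3.92 in the vector line, all at background, and 5.18, 5.02 and 5.13 in the clone, at least 2.13-fold higher (adjusted p = 4.31e-06). Its 0 h means were 4.54 and 7.14 and its 16 h means 3.61 and 3.79, so that at 16 h it no longer passed the test. Ttn, the giant muscle protein titin, was at least 2.66-fold higher at 6 h, and neither change of its line difference between times passed the test. Mppe1, a phosphoesterase, went the other way from Gas7. It differed by 0.23 at 0 h without a call and by 1.23 ± 0.11 at 6 h. That change of 1.00 passed the test (adjusted p = 0.00991 by limma).

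Peptide hormones split between the lines, and these differences too preceded the cytokines. Of 29 islet hormones and neuropeptides other than insulin, 1 was higher and 3 were lower, and the list's median was 0.02. Among all genes 2.43% were higher and 1.56% lower. Npy, neuropeptide Y, read 10.80, 10.79 and 11.12 in the vector line and 11.96, 11.97 and 12.10 in the clone, a difference of 1.11 ± 0.09 (adjusted p = 4.16e-07 by limma). Tac1, the precursor of substance P, read 7.54, 7.58 and 7.19 against 5.86, 5.43 and 5.57, a difference of -1.81 ± 0.12 (adjusted p = 3.53e-08). Agt, angiotensinogen, was lower by -1.42 ± 0.12 and Cartpt, the CART precursor, by -1.0 ± 0.18. All of these 4 genes had calls of the same sign at 0 h, and none had arrays that overlapped at 6 h.

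Beta-cell genes were for the most part alike in the lines, with some higher in the clone. Of 33 genes of insulin synthesis, glucose sensing and exocytosis 4 were higher and 0 lower, with a median of -0.00. Over all genes 2.43% were higher and 1.56% lower. Ins1 was near 13.7 on all 6 arrays and differed by 0.01. The highest value on these arrays was 13.86 to 13.99, so Ins1 lay near the top of the scale. A difference there may be compressed, which was not tested, so the 0.01 does not show that the lines were alike. Ins2 read 12.80, 12.82 and 12.73 in the vector line and 13.19, 13.23 and 13.19 in the clone, a difference of 0.42 ± 0.08 (adjusted p = 0.00495 by limma). The Ins2 difference was 0.28 at 0 h, without a call, and 0.74 at 16 h. Glp1r, the receptor for the incretin GLP-1, read 5.88, 6.21 and 6.42 against 7.08, 7.12 and 7.12, a difference of 0.94 ± 0.12 (adjusted p = 6.34e-05), and Sytl4, the granule protein granuphilin, was higher by 0.83 ± 0.17 (adjusted p = 0.00653). For both genes the 6 h means lay below the 0 h means in each line: the differences 6 h minus 0 h were -0.92 and -1.67 in the vector line and -0.47 and -0.96 in the clone. Stx1a, a syntaxin of granule fusion, was higher by 0.67 ± 0.11 (adjusted p = 0.00112), and it lies in the stretch of chromosome 12 described further on.

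Of 13 beta-cell transcription factors, 1 was higher and 1 lower, against 2.43% of all genes higher and 1.56% lower. Nkx6-1, a factor of beta-cell identity, read 5.39, 5.36 and 5.20 in the vector line and 5.89, 6.25 and 6.08 in the clone, a difference of 0.75 ± 0.16 (adjusted p = 0.0104 by limma). Its 0 h means were 8.46 and 9.04, far above the 6 h levels in both lines. The call was lost without pcDNA replicate 3 (0.0577) or pCTSH1 replicate 2 (0.0715). Myt1, a zinc-finger factor of endocrine cells, differed by -0.31 (adjusted p = 0.0374), and lost its call without replicates 1 or 2 of pcDNA or 1 or 3 of pCTSH1 (0.117 to 0.186).

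Matrix and mesenchymal genes were mostly lower where they differed. Of 33 such genes 5 were lower and 1 was higher, with a median of -0.01, beside 1.56% of all genes lower and 2.43% higher. Of the 33, 19 were above background on at least 2 of 3 arrays of 1 or both lines. Col5a2, a fibrillar collagen chain, read 7.52, 7.49 and 7.45 in the vector line and 6.54, 6.45 and 6.60 in the clone, a difference of -0.96 ± 0.10 (adjusted p = 4.62e-06 by limma). Its 0 h means were 4.32 and 4.19, and the change of its line difference from 0 h, -0.83, passed the test (adjusted p = 0.0129). Another, dimmer probe set of Col5a2 differed by -0.57 (adjusted p = 0.0502). Fn1, fibronectin, was lower by -0.77 ± 0.11 (adjusted p = 2.27e-04) and had been lower at 0 h by -0.56, and Cdh11, a mesenchymal cadherin, was lower by -0.82 ± 0.16 (adjusted p = 0.00565). Col5a2, Cdh11 and Vim all read far higher at 6 h than at 0 h in both lines. Serpine2, a serpin, differed by -0.75, Vim, the filament vimentin, by -0.69 (named after its value was seen), and Cav1, caveolin-1, by 0.81. All 3 probe sets of Cav1 were higher, the others by 1.31 (adjusted p = 6.69e-06) and 0.97 (adjusted p = 0.00175). Serpine2 lost its call without pCTSH1 replicate 3 (0.0632), Cav1, by its brightest probe set, without pcDNA replicate 1 (0.0564) or pCTSH1 replicate 3 (0.075), and Vim without any 1 of 4 arrays, all but pcDNA replicate 1 and pCTSH1 replicate 3 (0.0652 to 0.107). Of 6 fibroblast markers 5, Col1a1, Col1a2, Col3a1, Lum and Dcn, were at background in both lines, and the summed level of the 6 was 6.36 to 6.43 in the vector line and 6.41 to 6.51 in the clone.

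G protein and retinoid genes had 5 higher and 2 lower calls of 29, with a median of 0.09, against 2.43% of all genes higher and 1.56% lower. Besides Gna15 and Aldh1a1, the alpha subunit Gna12 was higher by 0.39 ± 0.07 (adjusted p = 0.00332 by limma), Gng2, a gamma subunit, was lower by -0.67 ± 0.11 (adjusted p = 8.6e-04), and Crabp2, a carrier of retinoic acid, was lower by -1.05 ± 0.20 (adjusted p = 0.00433). Plcb1, a phospholipase C (0.43), and Rara, a retinoic acid receptor (0.56), are named after their values were seen. Plcb1 missed the threshold without any 1 of the 6 arrays (0.0514 to 0.187), and Rara without pcDNA replicate 1 (0.0564) or 3 (0.0598). Of 26 muscle and cytoskeleton genes 2 were higher (Ttn and Gas7) and 2 lower (Myo16 and Des), against the same shares of all genes. Des, desmin, was at background in the clone (at least 1.09-fold lower) and lost its call without any 1 array other than pCTSH1 replicate 3 (0.0553 to 0.168).

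The remaining lists gave few calls, against 2.43% higher and 1.56% lower among all genes. Of 47 cell cycle genes 3 were higher and 0 lower (median 0.07), of 39 lysosomal genes 1 was higher and 0 lower (median -0.01), and of 16 genes of cholesterol synthesis 2 were higher and 0 lower (median -0.07). At an unadjusted limma p below 0.05 the lower members of these lists were 1, 8 and 2, and the higher members 7, 1 and 2. Of all 13440 genes, 892 were lower and 1070 higher at that threshold. Cdkn2c, an inhibitor of cyclin-dependent kinases, was higher by 0.43 ± 0.08 (adjusted p = 0.00235 by limma). The other 5 of these calls, each between 0.36 and 0.46, were lost without single arrays. Mcm7, a helicase subunit, lost its call without any 1 array other than pcDNA replicate 3 (0.0583 to 0.105), and Cdkn1a, the inhibitor p21, without any other than pCTSH1 replicate 1 (0.0846 to 0.196). Npc2, a lysosomal cholesterol carrier, lost it without replicates 2 or 3 of pcDNA or 1 or 3 of pCTSH1 (0.0582 to 0.0838). Srebf2, the main regulator of cholesterol synthesis, lost it without replicates 1 or 2 of pcDNA or 1 or 3 of pCTSH1 (0.0585 to 0.137), and the mevalonate pathway kinase Pmvk without any 1 of the 6 arrays (0.0579 to 0.178). Of 22 type 1 diabetes candidate genes none was called in limma (1 higher and 0 lower at an unadjusted p below 0.05).

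**Figure D4:**
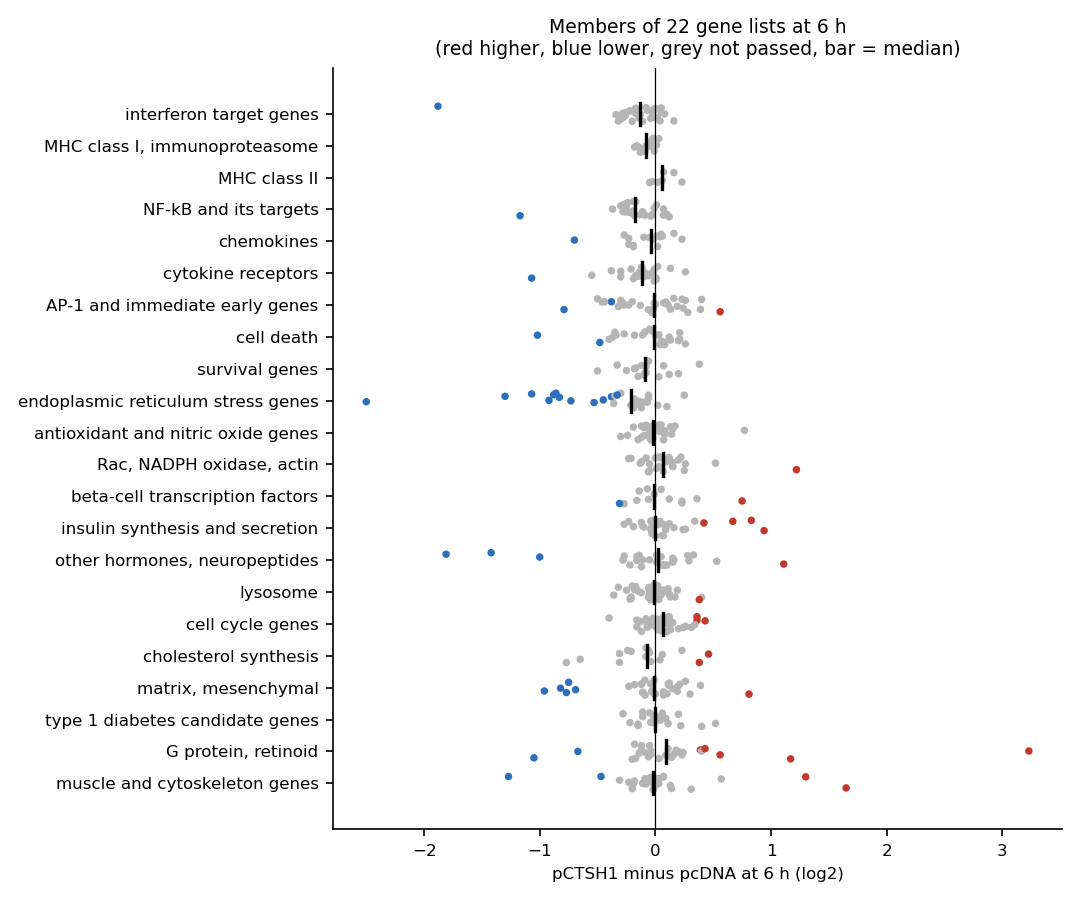
Difference between the clone and the vector line at 6 h (log2, pCTSH1 minus pcDNA, x axis) for each measured member of 22 gene lists (rows); each dot is a gene, coloured where called higher or lower, and the bar is the list's median. The endoplasmic reticulum stress list has 12 lower members and a median of -0.21, and the medians of the other lists lie between -0.18 and 0.09.

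The calls at 6 h were also set against those at the other times, which use other arrays but the same estimate of spread. The overlaps are therefore not independent. With only the groups compared in each fit, shared probe sets fell from 312 to 179 for 0 h and from 353 to 101 for 16 h. Of the 327 higher genes, 139 (42.5%) were also higher at 0 h, which is 66.2% of the 210 higher there (1.56% of all genes), and 162 (49.5%) were higher at 16 h, which is 36.2% of 447 (3.33%). Of the 209 lower genes, 61 (29.2%) were lower at 0 h, 45.5% of 134 (0.997%), and 59 (28.2%) at 16 h, 22.3% of 264 (1.96%). The genes called in either direction made up 2.56% of all genes at 0 h and 5.29% at 16 h. Called at neither other time were 124 higher genes (37.9%) and 120 lower genes (57.4%), and Chac1, Atf4, Ddit3, Herpud1, Trib3, Ptgs2 and Myc were among the latter. A call at 6 h alone does not show a change over time. The test of that change called 32 probe sets from 0 h to 6 h, 26 of them lower (0.0838%) and 6 higher (0.0193%), and 83 from 6 h to 16 h, 41 higher (0.132%) and 42 lower (0.135%). Leaving out pcDNA replicate 1 or 3 at 6 h brought the first count to 19 each, and pCTSH1 replicate 1 to 20. Without pcDNA replicates 2 or 3 or pCTSH1 replicates 1 or 2 at 6 h the second count was 49, 45, 41 and 48.

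Many of the higher genes were neighbours on the chromosomes. Along the RefSeq gene order, stretches were marked where the running median of 21 genes of the 0 h difference exceeded 0.20. They held 147 genes of chromosome 12, from Cdx2 to Gtf2ird1, and 96 genes of chromosome 13, from Pcp4l1 to Kcnh1. Gaps shorter than 21 genes were joined, so the running median need not exceed 0.20 throughout. These limits were set after seeing the data, from the 0 h arrays, and are a description. At 6 h the median difference was 0.30 over the genes on chromosome 12 and 0.41 over those on chromosome 13, and 93.2% and 94.8% of the genes were above zero. Over the rest of each chromosome the median was 0.01. At 16 h, on arrays that the rule did not use, the medians were 0.29 and 0.39. The medians at 0 h were 0.26 and 0.37, but the rule for the stretches fixed these in part. They therefore do not measure the shift without cytokines independently. Each clone array at 6 h showed it, with medians of 0.31, 0.31 and 0.31 on chromosome 12 and 0.43, 0.42 and 0.38 on chromosome 13 relative to the mean of the vector line. Against INS-1 cells at 0 h the clone stood 0.31 and 0.46 higher over these stretches, and the vector line 0.03 and 0.10. The clone and vector arrays in that comparison are the ones that set the stretches.

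In these stretches 112 of 243 genes were called higher (46.1%) and 1 lower, and outside them 213 of 9846 genes above background with a place were higher (2.16%) and 201 lower. The differences are small but even. Parp1, a DNA repair enzyme on chromosome 13, read 10.56, 10.63 and 10.52 in the vector line and 11.15, 11.16 and 11.00 in the clone, a difference of 0.53 ± 0.08 (adjusted p = 3.46e-04 by limma). Enah, an actin regulator, differed by 0.56 ± 0.07 (adjusted p = 1.41e-04 by limma), and Pfdn2, a prefoldin subunit, by 0.37 ± 0.07 (adjusted p = 0.00334). Parp1 and Enah lie in 1 run of 15 neighbours, of which 13 were called higher. Runs were picked as consecutive genes with at least 4 of 5 called in the same direction at 6 h. The count of calls in a run follows from that rule and is no separate result. Stx1a, Gna12 and Mcm7, named above, lie in the stretch of chromosome 12, while none of the 31 endoplasmic reticulum stress genes lies in either stretch. The cause of the shift was not tested.

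**Figure D5:**
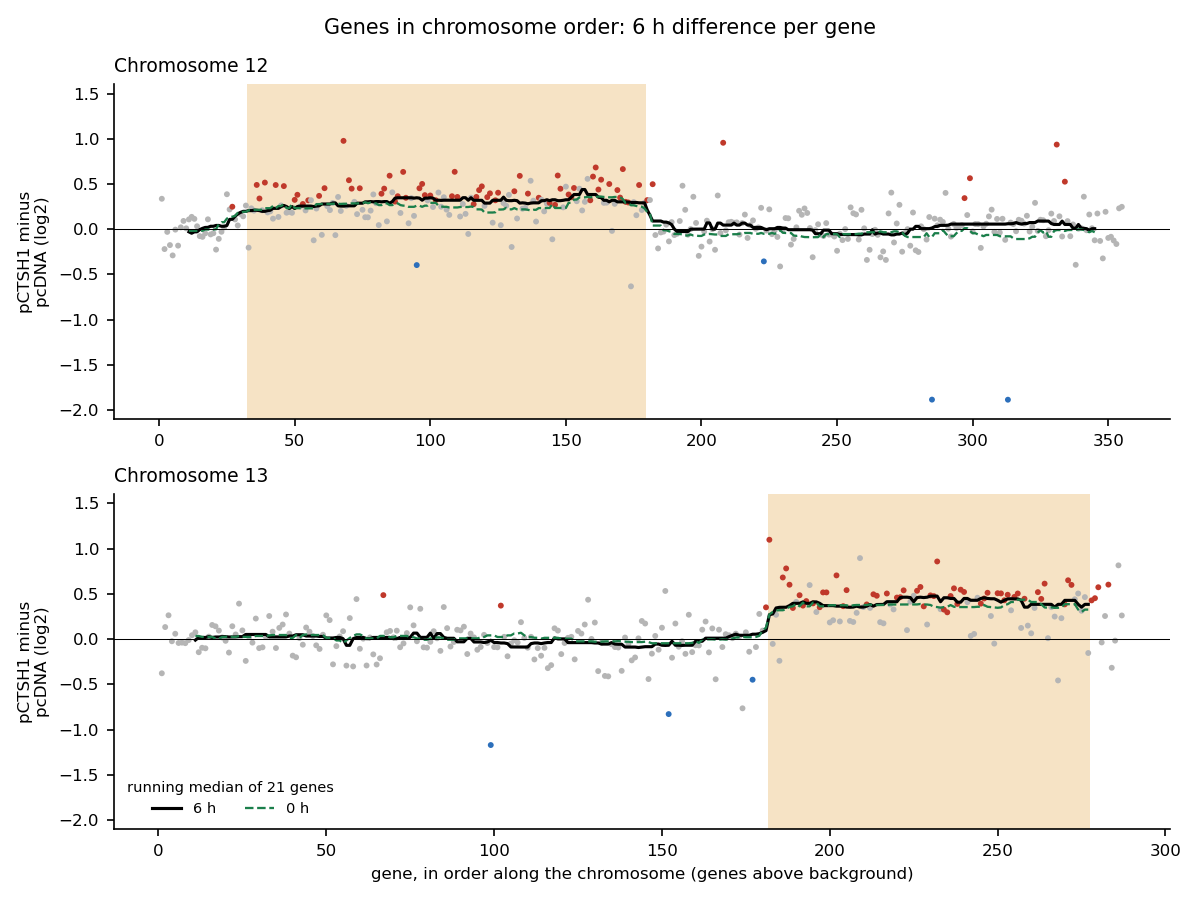
Difference between the clone and the vector line at 6 h (log2, pCTSH1 minus pcDNA, y axis) for each gene in order along chromosomes 12 and 13 (x axis, rank of the gene); dots are genes above background (red called higher, blue called lower), the black line is the running median of 21 genes at 6 h, the dashed green line that at 0 h, and shading marks the 147 and 96 genes of the stretches. Both lines lie above zero across the shaded parts, at 6 h by a median of 0.30 and 0.41, and near zero elsewhere. The shaded parts were set from the 0 h differences.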

How the data were processed

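The authors deposited log2 values of 21 arrays normalised by RMA (robust multi-array average, which corrects background, quantile-normalises and summarises probes), with affy and limma, per the submitters' processing notes, without versions. Quantile normalisation gives all arrays 1 distribution, and RMA compresses low signals. Here 95 control probe sets were left out, and the means of 7 groups of 3 were fitted to 31042 probe sets over all arrays (14 residual degrees of freedom) with limma 3.58.1 in R 4.3.3. Contrasts were tested two-sided with eBayes and Benjamini-Hochberg adjustment over all probe sets, at 0.05. In simulated data of the 6 h comparison, 53% of changes of 0.5 and 95% of changes of 1 (log2) were called. Each size was put into 100 probe sets, all brighter than the median, with normal noise independent between probe sets. These shares need not hold for dim probe sets or for another number of changed ones. The number of arrays limits the precision.

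The platform annotation gave 19062 probe sets 1 symbol, 573 several and 11407 none; each of 13440 genes is taken by its brightest probe set on average. Where at least 2 of 3 arrays of the lower line were at background, a fold is a lower bound. It is the other line's mean over background, or over the lower line's mean where that was higher, as for Ptgs1. Named genes are the 15 highest and 15 lowest called genes without overlap, the 5 smallest p-values of each list, the 8 highest and 8 lowest changes between times, runs of neighbours, and Ctsh, Rac2, Nos2, Nox1, Ins1 and Ins2; others are marked. The members and lists were chosen with earlier results of these data known. Same-numbered arrays of the lines had residual correlations of 0.106, 0.124 and 0.239 at 0 h, 0.09, 0.083 and 0.206 at 6 h and 0.04, 0.079 and 0.244 at 16 h. These passed 0.1 for all pairs at 0 h alone, so the replicate number served as an alternative block. Other alternatives were array centring, cyclic loess, the brighter 50% of probe sets, a trended robust fit, array weights, fits of only the groups compared, averaged probe sets and leaving out each array.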

Additional observations from a re-analysis of the deposited data

Results flagged for a closer look

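The line difference itself changed between times for the following genes, by the limma contrast of the differences (Benjamini-Hochberg adjusted p below 0.05). Values are changes of the difference pCTSH1 minus pcDNA on the log2 scale, and no cause was tested.

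From 0 h to 6 h it changed by -2.57 for Chac1, -2.05 for Ptgs1, -1.29 for Gas7, -0.97 for Tmem106a, a membrane protein that was 0.89 higher in the clone at 0 h and differed by -0.09 with overlapping arrays at 6 h, -0.91 for Ddit3 and 1.00 for Mppe1. These 6 calls held under every alternative run. It changed by -1.77 for Oasl, -1.35 for Ptgs2, -1.0 for the adhesion molecule Chl1, -0.99 for the deubiquitinase Otud1, -0.75 for Myc, and by 0.65 for the immunoproteasome subunit Psmb8. These 6 calls were each lost without some single array. For Col5a2 it changed by -0.83, a call lost with a trended robust fit (adjusted p = 0.0822) or only the groups compared (0.051). Psmb8 was lower in the clone at 0 h (-0.72) and differed by -0.08 at 6 h.

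From 6 h to 16 h the difference changed by 2.49 for Chac1, 1.44 for Elmod1, 1.14 for Depp1, 1.00 for Ccl20, 0.75 for Atf4, 0.63 for the chemokine Cxcl3, -1.12 for Gas7, -1.90 for Ppargc1a, -1.80 for Gna15, -1.74 for Cyria and -1.32 for Spry2, an inhibitor of receptor kinase signalling, and these 11 calls held under every alternative run. It changed by 1.09 for Oas1b and -1.31 for Cnnm2, which missed the threshold only when the fit was limited to the groups compared (adjusted p = 0.0588 and 0.0579). It changed by 1.23 for Dmrta1, 1.09 for Phex, 0.99 for Cxcl2, 0.71 for Myc, 0.70 for Ddit3, -1.48 for Lhfpl6, -1.28 for the iron exporter Slc40a1 and -1.19 for the adenosine receptor Adora2b, calls that were each lost without some single array. Where a line was at background at either time, as for Ptgs1, Ptgs2, Oasl, Gas7, Chl1, Ppargc1a and Cyria, the change is a fitted value and not a size.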

How the results depend on the processing

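The 544 higher and 343 lower probe sets at 6 h became 978 and 759 with array weights. Leaving out 1 array gave 322 to 395 higher and 209 to 251 lower, and the other alternatives stayed within 1.5 times. The 32 changes from 0 h to 6 h became 55 with a trended robust fit and 65 with array weights, and 17 to 30 without 1 array. The 83 changes from 6 h to 16 h became 193 over the brighter 50% of probe sets, 212 with a trended robust fit, 210 with array weights, 46 with only the groups compared, and 41 to 130 without 1 array. Of calls shared with 0 h (312) and 16 h (353) there were 179 and 101 with only the groups compared, and 227 to 264 and 247 to 337 without 1 array. The replicate block gave 574 higher and 389 lower, and changes of 35 and 122; it changed no call named for a change from 0 h to 6 h, and ended those of Pmvk at 6 h (adjusted p = 0.0501), Mrm2 at 6 h (0.0589), Mad1l1 at 6 h (0.0515) and Phex (0.0507) from 6 h to 16 h. An alternative added after seeing the data, without the chromosome stretches, gave 384 higher and 322 lower. Of 3252 alternative values of named genes, 2833 kept direction and side of the threshold, 339 lost a call, 72 gained one and 8 changed sign. Without 1 array, the 6 h difference ran from -0.04 to 0.50 for RT1-Ba, from -0.10 to 0.21 for Cd74, from -0.06 to 0.02 for Ciita, from -0.34 to 0.37 for RT1-Db1 (-0.15 and -0.05 also below zero) and from -0.18 to 0.05 for Ppargc1a, and that of Ins1 was -0.00 with arrays centred. None of these had a call. The causes were not tested.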
